A study of Mus musculus with 4 samples.

Results

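The cells described here are granule-gene-high neutrophils of the injured mouse kidney: 847 of 40939 cells kept from 4 libraries. They were chosen by their counts. Of barcodes with at least 500 unique molecular identifiers (UMIs, the count of distinct captured RNA molecules), at least 300 genes and under 50% mitochondrial UMIs, a cell was a member if S100a8 and S100a9 together reached 50 per 10000 UMIs and Camp, Ngp and Ltf together reached 5 per 10000. A member could show at most 1 of C1qa, C1qb and C1qc, no Cd3e and no Pecam1. It also had Umod and Gpx3 each under 10 per 10000. These limits screen against macrophages, T cells, endothelium and tubule cells, but mixed cells can remain. Those genes chose the cells, so their levels are given as a description and were not tested. All 4 mice were wild type with contrast-induced acute kidney injury (CIAKI), a kidney injury that follows an X-ray contrast agent, and whole kidneys were dissociated for 10x Genomics droplet sequencing. The labels give 1 group and 1 batch, and no age, sex, agent, dose or time after injury. No uninjured kidney was analysed here, so nothing below compares injury with health.

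Neutrophils are made in the bone marrow, where the dividing precursors first fill primary granules with myeloperoxidase and elastase, and later, as promyelocytes give way to myelocytes and metamyelocytes, make the proteins of specific granules. Camp (the antimicrobial peptide cathelicidin), Ngp (neutrophilic granule protein) and Ltf (the iron-binding protein lactoferrin) belong to that second wave, which depends on the transcription factor C/EBP epsilon, encoded by Cebpe. Circulating mature neutrophils have largely stopped transcribing granule genes and carry receptors such as CXCR2 and the G-CSF receptor.

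The 3 granule genes that chose the cells lie on mouse chromosome 9, and the stretch just before each start site is shown because the summed transcripts of these genes defined the members; the promoter of Itgb2l, the gene outside the rule with the largest fold change among the granule genes, is set beside them. The sequences are the 250 bases before the start in RefSeq (build GRCm38.p6), at chr9:109849457-109849706 (minus strand), chr9:110419558-110419807 (plus strand), chr9:111019042-111019291 (plus strand) and chr16:96443615-96443864 (minus strand), written 5' to 3' along the gene. Capitals mark matches to TTGCNNAA, a core of the C/EBP binding motif, searched on both strands (TTNNGCAA on the other).
Camp: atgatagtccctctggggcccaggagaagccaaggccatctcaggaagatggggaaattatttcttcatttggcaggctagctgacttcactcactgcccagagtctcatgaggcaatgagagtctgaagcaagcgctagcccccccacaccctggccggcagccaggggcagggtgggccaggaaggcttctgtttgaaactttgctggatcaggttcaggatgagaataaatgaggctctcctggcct
Ngp: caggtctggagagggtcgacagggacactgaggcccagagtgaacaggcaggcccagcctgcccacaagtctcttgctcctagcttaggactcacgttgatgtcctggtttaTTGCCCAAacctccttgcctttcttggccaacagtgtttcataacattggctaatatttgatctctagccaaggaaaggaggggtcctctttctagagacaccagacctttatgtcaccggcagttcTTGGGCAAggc
Ltf: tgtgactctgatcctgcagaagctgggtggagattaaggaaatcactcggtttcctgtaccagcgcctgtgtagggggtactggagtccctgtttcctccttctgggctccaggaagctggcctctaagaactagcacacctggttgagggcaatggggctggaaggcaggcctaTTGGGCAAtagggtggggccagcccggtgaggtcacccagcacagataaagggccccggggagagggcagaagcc
Itgb2l: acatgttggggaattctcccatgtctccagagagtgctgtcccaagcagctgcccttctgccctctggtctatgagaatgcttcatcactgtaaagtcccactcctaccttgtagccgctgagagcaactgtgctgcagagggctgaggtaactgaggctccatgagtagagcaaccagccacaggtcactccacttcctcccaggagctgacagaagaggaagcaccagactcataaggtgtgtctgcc
Ngp held 2 matches, which began 138 and 11 bases before the start, and Ltf held 1, which began 75 bases before it. Camp and Itgb2l held none in this window. The motif was found in 9.56% of all 32851 RefSeq promoter windows of this length, so a match is a description of the letters and no more.

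The mice differed widely in how many such cells they held. Members made up 2.09% of kept cells in mouse 1 (148 cells, exact binomial 95% interval 1.77 to 2.45%), 2.59% in mouse 2 (229 cells, 2.26 to 2.94%), 3.24% in mouse 3 (418 cells, 2.94 to 3.56%) and 0.430% in mouse 4 (52 cells, 0.321 to 0.564%), a mean of 2.09% ± 1.20 (SD, n = 4). Mouse 3 was highest and mouse 4 lowest. Of all neutrophils that passed the same gate whatever their granule genes, members were 8.62%, 7.46%, 65.9% and 25.9% in mice 1 to 4. In mouse 3 the members thus outnumbered the 216 neutrophils with a granule sum under 5, called mature neutrophils here, whereas mice 1 and 2 held 1569 and 2840 of the latter and mouse 4 held 149. Intervals cover counting error only.

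**Figure D1:**
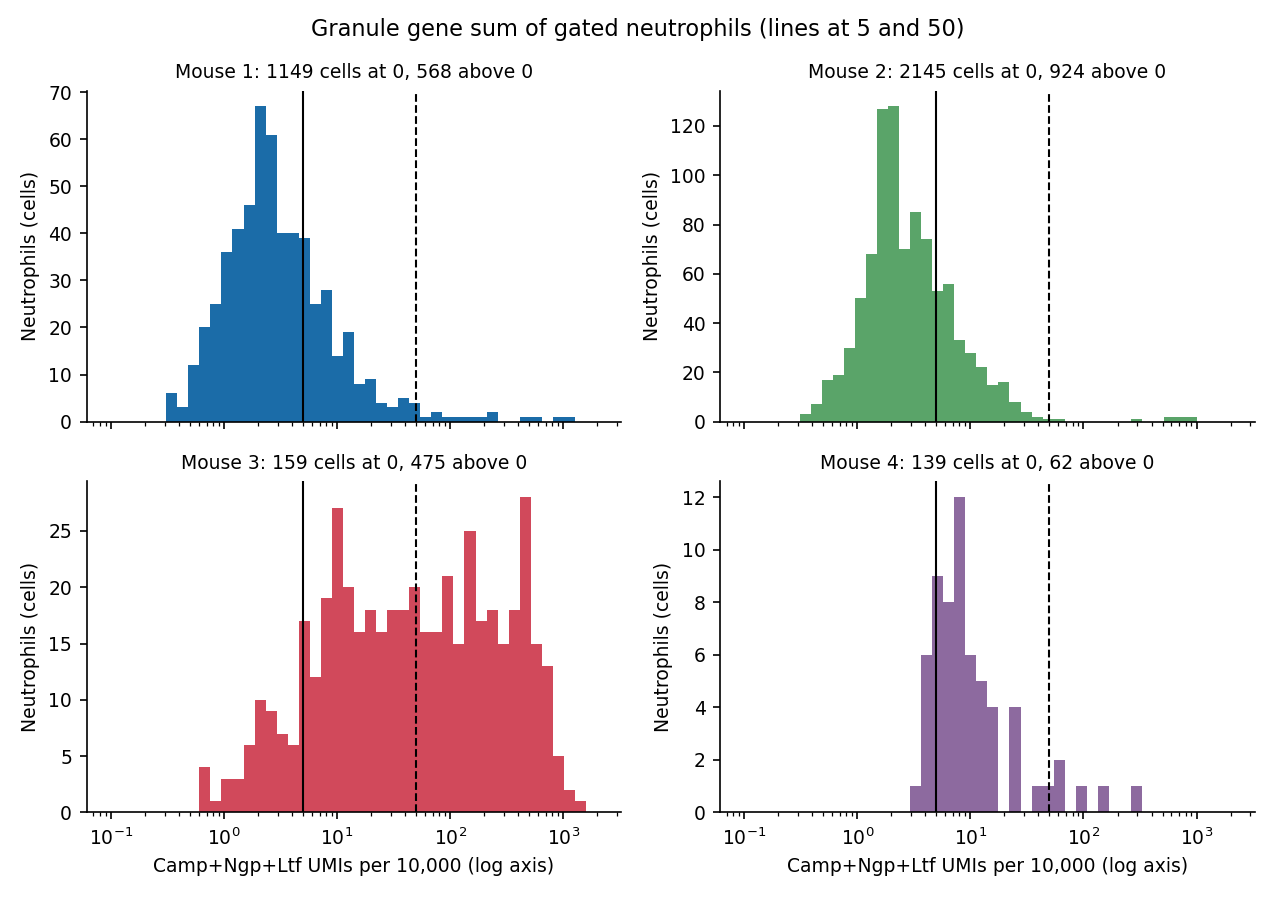
Histograms of the summed Camp, Ngp and Ltf UMIs per 10000 (horizontal log axis) over gated neutrophils (vertical axis, cells) in each of the 4 mice; cells at 0 are counted in the panel titles, the solid line is the limit of 5 and the dashed line is at 50. In mice 1 and 2 the cells form a tail past the limit, while in mouse 3 the sums spread broadly to over 1000.

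Most members held little granule RNA, and those that held much came from mouse 3. A sum of 50 or more per 10000 was reached by 263 members, called granule-rich here: 13, 8, 237 and 5 cells in mice 1 to 4, 90.1% of them from mouse 3. Their share of kept cells averaged 0.538% over the 4 mice and 0.105% without mouse 3. The other 584, called granule-low, had 5 to under 50 and numbered 135, 221, 181 and 47. Ngp was seen in 807 of the 847 members, Camp in 366 and Ltf in 327, all 3 in 251, and Ngp alone in 405. The sum rested on a single UMI in 41 members, on 2 in 47 and on 3 or more in 759. At the limit itself, the 130 cells just outside (4 to under 5 per 10000) and the 89 just inside (5 to under 6) each had a median of 3 granule UMIs, close to what the limit itself sets at these depths. T cells (Cd3e and Trac detected), which should lack these genes, give a background: of them, 0.532%, 0%, 2.33% and 0.138% reached the limit of 5 in mice 1 to 4, at median depths of 6005, 6749, 5891 and 2314 UMIs. The 0 in mouse 2 was out of 240 T cells and its exact interval reached 1.53%. Members had median depths of 5999, 6042, 7159 and 2304 UMIs and mature neutrophils 4800, 5037, 4643 and 1686, so members were the deeper class in each mouse.

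Levels are given in CPM, a gene's UMIs per 1000000 UMIs summed over a mouse's cells of a class. Ngp stood at 4646, 4664, 15361 and 2923 CPM in the members of mice 1 to 4, against 68.4, 57.9, 68.3 and 32.6 CPM in mature neutrophils. Camp stood at 2088, 2066, 4426 and 640 CPM, and Ltf at 651, 1015, 1319 and 29.7 CPM. Mouse 3 had the most of all 3 genes and mouse 4 the least. Camp was at 14.5, 12.0, 306 and 35.7 CPM in granule-low and 12803, 20673, 6807 and 3663 CPM in granule-rich members, and Ltf at 62.1, 80.2, 52.9 and 17.8 against 3695, 9483, 2051 and 89.3 CPM, where mouse 4 had 2 Ltf UMIs in each. The calprotectin gene S100a8, which also chose the cells, was at 22834, 24229, 18405 and 95673 CPM in members. In T cells Camp was at 0.569, 0, 163 and 0 CPM, and mouse 3 again had the highest value, with 506 UMIs in 15 of 387 cells. Whether these were free RNA or droplets that held 2 cells was not tested.

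Of the primary granule genes, the defining proteases and peroxidase gave few UMIs in members. Mpo, which encodes myeloperoxidase, gave 0, 1, 2 and 0 UMIs in the members of mice 1 to 4, and Elane, neutrophil elastase, gave 1, 27, 8 and 0, of which 26 of the 27 sat in 1 cell of mouse 2. Prtn3, proteinase 3, gave 7, 27, 10 and 15 UMIs. Mature neutrophils, more cells than the members except in mouse 3, gave 1, 0, 31 and 0 UMIs of Mpo. They gave 2, 1, 51 and 0 of Elane and 67, 100, 49 and 19 of Prtn3. In mouse 3 the mature class thus held more of all 3 genes than the members. There the top cell of each gene held 31, 38 and 39 of these UMIs. Cd63, a tetraspanin of primary granule membranes that many other cells also make, was at 193, 175, 377 and 275 CPM in members and 227, 193, 395 and 381 CPM in mature neutrophils. The progenitor genes Cd34, Kit and Flt3 together stood at 3.47 to 13.2 CPM in members and 8.64 to 19.2 CPM in mature neutrophils. Markers of other lineages were low in the members: the 4 basophil and mast cell genes summed to 0 to 0.285 CPM with 3 of them at 0 in every mouse, the 4 eosinophil genes to 0 to 5.20 CPM with 2 at 0, the 3 B cell genes to 0 to 7.44 CPM, and the 4 T cell genes to 1.99 to 81.8 CPM against 1762 to 3832 CPM in T cells. The 5 monocyte genes summed to 228 to 917 CPM in members and 171 to 569 CPM in mature neutrophils. The 8 neutrophil genes summed to 10158 to 71987 CPM in members, lowest in mouse 3. At least 1 UMI of a gene of another class (B cell, T cell, endothelial, tubule or C1q) was found in 43.2%, 33.2%, 27.5% and 19.2% of members and in 42.3%, 31.6%, 25.0% and 17.4% of mature neutrophils.

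To ask what else differed in these cells, counts were summed per mouse and class and members were compared with mature neutrophils inside each mouse, by edgeR's quasi-likelihood test with the mouse as a block. Of 7348 genes tested outside the rule, 247 were higher (3.36%) and 290 lower (3.95%) in members at a Benjamini-Hochberg adjusted p under 0.05, and the median log2 fold change over all of them was -0.05. The 2 classes come from the same libraries and differ in depth. Mice counted unequally. Without mouse 1 or 2 the counts were 67 and 65 of 7478 genes and 110 and 81 of 6847 (higher and lower). Without mouse 3 or 4 they were 522 and 517 of 7312 and 209 and 104 of 9061. Without the mouse block edgeR called 1 gene higher and 0 lower, with 219 at an unadjusted p under 0.05, against 1534 with the block. Of 60 named genes that were called, 31 kept their call in each fit that left out 1 mouse.

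Of 11 specific granule genes outside the rule, 6 passed the test and were higher, 0 were lower, and the median log2 fold change was 1.23. Without mouse 1, 4 passed and without mouse 3, 10. Itgb2l, which encodes a beta integrin-like protein, stood at 57.2, 33.1, 71.8 and 52.1 CPM in members of mice 1 to 4 and at 1.35, 1.29, 0.864 and 3.26 CPM in mature neutrophils. The values did not overlap between the classes, with a log2 fold change of 5.08 ± 0.29 (SE, edgeR adjusted p = 9.6e-07, higher in 4 of 4 mice). Cd177, a neutrophil surface antigen, stood at 276, 236, 295 and 104 CPM in members and 32.7, 36.5, 9.51 and 32.6 CPM in mature neutrophils. It was higher in each mouse, at 3.16 ± 0.28 on the log2 scale. Orm1, an acute-phase glycoprotein, was higher by 2.21 ± 0.18, and Pglyrp1, a peptidoglycan recognition protein that kills bacteria, by 1.31 ± 0.12. Lyz2 (lysozyme) was higher by 1.16 ± 0.21 with adjusted p = 0.0067 in edgeR, and lost the call without mouse 1. Lcn2 (neutrophil gelatinase-associated lipocalin) was at 6641, 6488, 27520 and 7340 CPM in members and 3688, 3313, 27810 and 6104 CPM in mature neutrophils. Its call, at 0.57 ± 0.15, came from mice 1, 2 and 4, and was lost without any of these. Chil3, at 2094, 2178, 3776 and 1435 CPM against 1342, 1082, 291 and 1587 CPM, and Mmp8, at 4451, 4969, 1682 and 1963 CPM against 2843, 3194, 171 and 1424 CPM, did not pass. Mouse 3 stood apart for both, and without it both passed in edgeR as higher, by 0.70 and 0.69 on the log2 scale. Without mouse 1, 2 or 4 neither passed.

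The share of cells with a Cd177 UMI was 48.6%, 40.6%, 58.1% and 25.0% in members of mice 1 to 4, 15.4%, 15.2%, 4.63% and 6.71% in mature neutrophils and 2.66%, 1.67%, 2.07% and 0% in T cells. When each cell was thinned to 1000 UMIs, it was 17.8%, 11.6%, 20.5% and 11.8% in members and 2.86%, 3.78%, 0% and 3.52% in mature neutrophils. At equal depth the share was higher in members than in mature neutrophils in each mouse. Thinned T cells were at 0.532%, 0.417%, 0.260% and 0%, above mature neutrophils in mouse 3.

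Gelatinase granules and secretory vesicles are filled later in maturation. Of 8 of their genes tested, 4 passed as higher and 0 as lower, with a median of 0.55. Without mouse 1, 2 passed. Mmp25, a membrane-bound metalloproteinase, was higher by 1.52 ± 0.22, and Mmp9 (gelatinase B) by 1.20 ± 0.21, at 1088, 927, 803 and 997 CPM in members and 627, 516, 159 and 616 CPM in mature neutrophils. Mmp9 did not overlap between the classes, and mouse 3 had the lowest mature level. The formyl peptide receptor genes Fpr1 and Fpr2, which sense bacterial products, were higher by 0.86 ± 0.16 and 0.60 ± 0.13, and without mouse 1 neither passed, nor Fpr2 without mouse 2. Of 4 primary granule genes tested, Ctsc, which encodes the protease that activates elastase and its relatives, was lower by 1.00 on the log2 scale (SE 0.19) and lost its call without mouse 1 or mouse 2.

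The NADPH oxidase, which makes the oxidative burst, had 3 of its 6 genes higher and 0 lower, with a median of 0.47. Without mouse 3, 5 passed, and without mouse 1, 2 or 4, 2 passed. Cybb, the catalytic gp91phox subunit, stood at 244, 232, 408 and 104 CPM in members and 60.4, 36.4, 141 and 48.9 CPM in mature neutrophils. Within each mouse it was higher, by 2.02 ± 0.20 over the 4 (edgeR adjusted p = 0.00014). Its membrane partner Cyba was higher by 0.72 ± 0.12 and the small GTPase gene Rac2 by 0.55 ± 0.12, the latter called in 1 of the 4 fits that left out a mouse. Padi4, whose product citrullinates histones during release of extracellular traps, stood at 176, 99.3, 121 and 59.5 CPM against 59.2, 32.5, 31.1 and 29.3 CPM and was higher by 1.67 ± 0.15. It was the 1 called gene of 4 in its list of nuclear envelope and trap genes. Glycolysis had 4 of 15 genes higher and 0 lower (median 0.42), led by Pgk1 at 0.87 ± 0.20 and Gpi1 at 0.84 ± 0.13. Gpi1 kept its call without each mouse, and Pgk1 lost it without mouse 1, 2 or 4. Without mouse 1 or mouse 2, 1 glycolysis gene passed, and without mouse 3, 8 passed.

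Of 4 early granulopoiesis transcription factor genes tested, 1 was higher and 1 lower. Cebpe, the factor of the specific granule stage, stood at 37.3, 26.5, 87.5 and 22.3 CPM in members and 5.80, 4.47, 32.0 and 3.26 CPM in mature neutrophils. The difference was 2.23 ± 0.27 on the log2 scale (edgeR adjusted p = 0.0006). The highest mature value, in mouse 3, lay inside the range of the members. In mouse 4 it rested on 3 UMIs in members and 1 in mature neutrophils. Cebpa, which acts at the onset of the granulocyte lineage, was lower, at 13, 21.7, 25.1 and 14.9 CPM against 27.1, 34.0, 48.4 and 32.6 CPM (fell by 0.87 with SE 0.21) and lost its call without mouse 1, 2 or 4. Of 9 late neutrophil factors, among them Spi1 and Cebpd, 0 passed in edgeR's test and 0 in DESeq2's, with 2 at an unadjusted p under 0.05. Without mouse 3, 4 of the 9 were lower, and between granule-rich and mature cells 2 of 9. Spi1, the gene of the myeloid factor PU.1, stood at 1666, 1642, 1870 and 848 CPM in members and 1621, 1594, 2328 and 769 CPM in mature neutrophils.

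**Figure D2:**
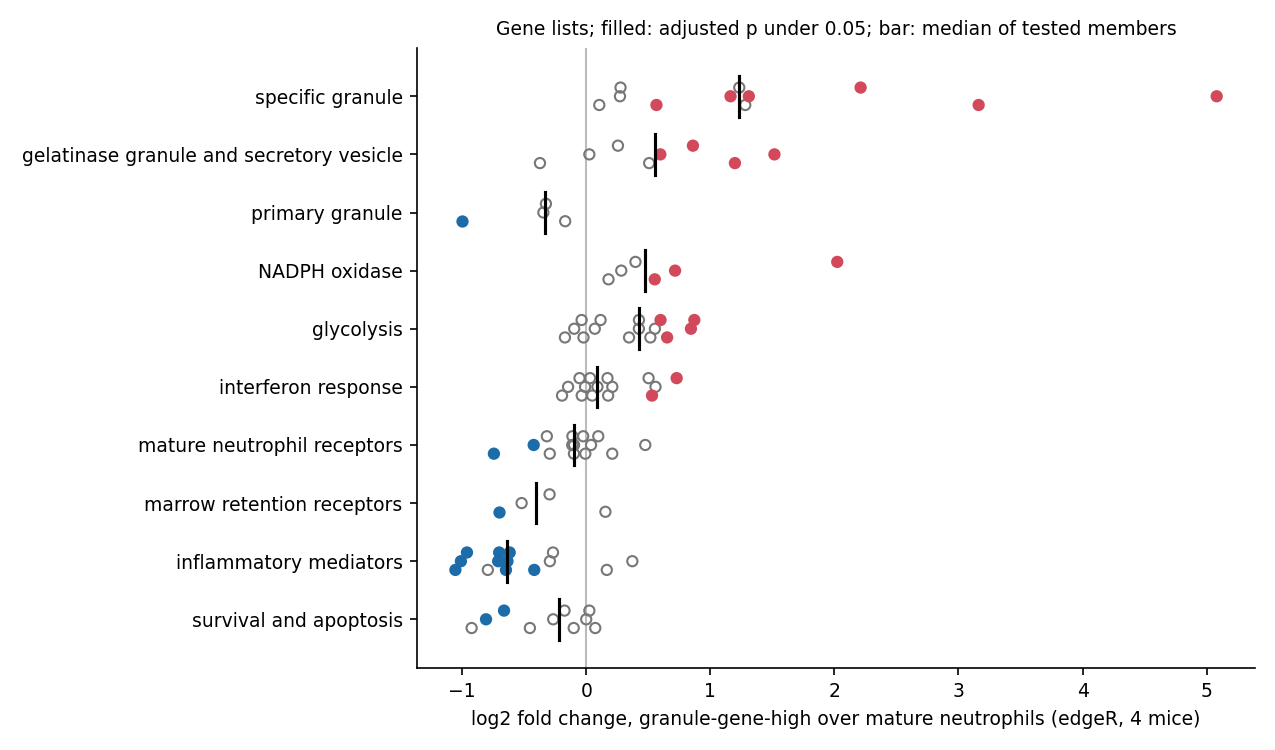
Log2 fold changes of members over mature neutrophils (horizontal axis) for 10 gene lists (vertical axis), 1 point per tested gene, fitted over 4 mice; filled points passed an adjusted p under 0.05, red higher and blue lower, and the bar is the list's median. The specific granule list lies to the right (median 1.23) and the inflammatory mediators to the left (median -0.64).

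Of 14 inflammatory mediator genes tested, 9 passed as lower in members and 0 as higher, and the median was -0.64. Without mouse 1 or mouse 2, 5 passed, without mouse 4, 4, and without mouse 3, 9 were lower and 2 higher. Ccl3, a chemokine that draws monocytes and neutrophils, stood at 130, 61.4, 2529 and 59.5 CPM in members and 243, 133, 4098 and 290 CPM in mature neutrophils. Mouse 3 exceeded the others in both classes, and within each mouse members were lower (by 1.01 on the log2 scale, SE 0.16, edgeR adjusted p = 0.0037). Ptgs2, the inducible cyclooxygenase, was at 396, 252, 145 and 37.2 CPM against 642, 532, 265 and 186 CPM, a log2 fold change of -0.96 ± 0.16. Ccl4 was lower by 0.71 on the log2 scale (SE 0.13), a call lost without mouse 4, and Cxcl3 by 1.06 (SE 0.25), the latter higher in members in 1 mouse and called in 1 of the 4 fits that left out a mouse. Il1b, at 11512, 11332, 12276 and 2238 CPM against 16131, 15582, 16452 and 5935 CPM, was lower in 4 of 4 mice by 0.64 (SE 0.13). Without mouse 1 it lost its call. Nfkbia, the feedback inhibitor of NF-kB, was lower by 0.62 (SE 0.10) and kept its call without each mouse.

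Receptor genes of mature neutrophils are set beside all 7348 genes tested, of which 3.95% were called lower and 3.36% higher. Without mouse 3, 4 of 14 were lower, and without mouse 1, 2 or 4, 0 were. Of 14 tested, 0 were higher and 2 lower (median -0.10): Tlr4, the lipopolysaccharide receptor, at -0.75 ± 0.16, and Csf3r, the G-CSF receptor, at -0.42 ± 0.11, each called in 1 of the 4 fits that left out a mouse. Csf3r stood at 2177, 1893, 352 and 632 CPM in members and 2809, 2519, 463 and 1056 CPM in mature neutrophils. Cxcr2, which leads neutrophils out of the marrow, was at 1596, 2003, 473 and 461 CPM in members and 1626, 2091, 108 and 521 CPM in mature neutrophils and did not pass. Of 4 marrow retention receptor genes, Cxcr4 was lower, at -0.71 ± 0.13, and lost its call without mouse 2. Of the remaining lists, interferon response had 2 of 15 higher (Cmpk2 and Ifitm3). Survival and apoptosis had 0 higher and 2 of 10 lower (Bax and Bcl2l11), and protein folding in the endoplasmic reticulum 1 of 10 lower (Hspa5). Without mouse 1 or mouse 2 none of these passed. Of the 4 fits that left out a mouse, Bax was called in 0, Cmpk2, Bcl2l11 and Hspa5 in 1 each and Ifitm3 in 2. In translation and nucleolus 0 of 9 passed in edgeR or DESeq2 (1 at an unadjusted p under 0.05), and in the cystatin-like genes 0 of 5 (0 at an unadjusted p under 0.05). Of 10 DNA replication genes 1 had enough counts to be tested, and it did not pass.

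Outside the lists, the 10 largest rises were led by Adpgk, an ADP-dependent glucokinase, and Serpinb1a, an inhibitor of neutrophil serine proteases. Adpgk stood at 138, 129, 67.5 and 74.4 CPM in members and 15.2, 13.9, 5.19 and 19.6 CPM in mature neutrophils, with no overlap and a log2 fold change of 3.20 ± 0.20 (edgeR adjusted p = 2.5e-06). Serpinb1a was at 136, 169, 108 and 96.7 CPM against 18.3, 16, 9.51 and 58.7 CPM, higher by 2.98 ± 0.27. The other 8 were H4c4 (a histone H4 gene), Ly6a2, Abca13, Ifitm6, Syne1, Ckap4, Aldh2 and Agpat2, between 1.62 and 2.46 on the log2 scale, and all 10 kept their call without each mouse. The 10 largest falls were Cxcl1, Ccn2, Magi2, Fn1, Pde1a, Hspb1, F10, Id3, Ppp1r15a and Fnip2. Ppp1r15a, a stress-induced phosphatase subunit, had the highest level of them, at 342, 342, 251 and 141 CPM in members and 845, 708, 900 and 525 CPM in mature neutrophils, -1.44 ± 0.16. Several of the others are genes of kidney cells other than neutrophils (Fn1 of matrix-forming cells, Magi2 of podocytes), with 7.41 and 7.50 CPM in members on average. Beside these, the proximal tubule genes summed to 29.7 to 252 CPM in members and 68.4 to 341 CPM in mature neutrophils. Leaving out cells with markers of other classes gave 206 genes higher and 252 lower of 6063. The part of kidney cell genes in the result was not tested further. Ccn2 lost its call without mouse 3, Hspb1 without mouse 3 or 4, Fn1 without mouse 1 or 4, Id3 without mouse 1, 3 or 4 and Magi2 without mouse 1, 2 or 4.

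**Figure D3:**
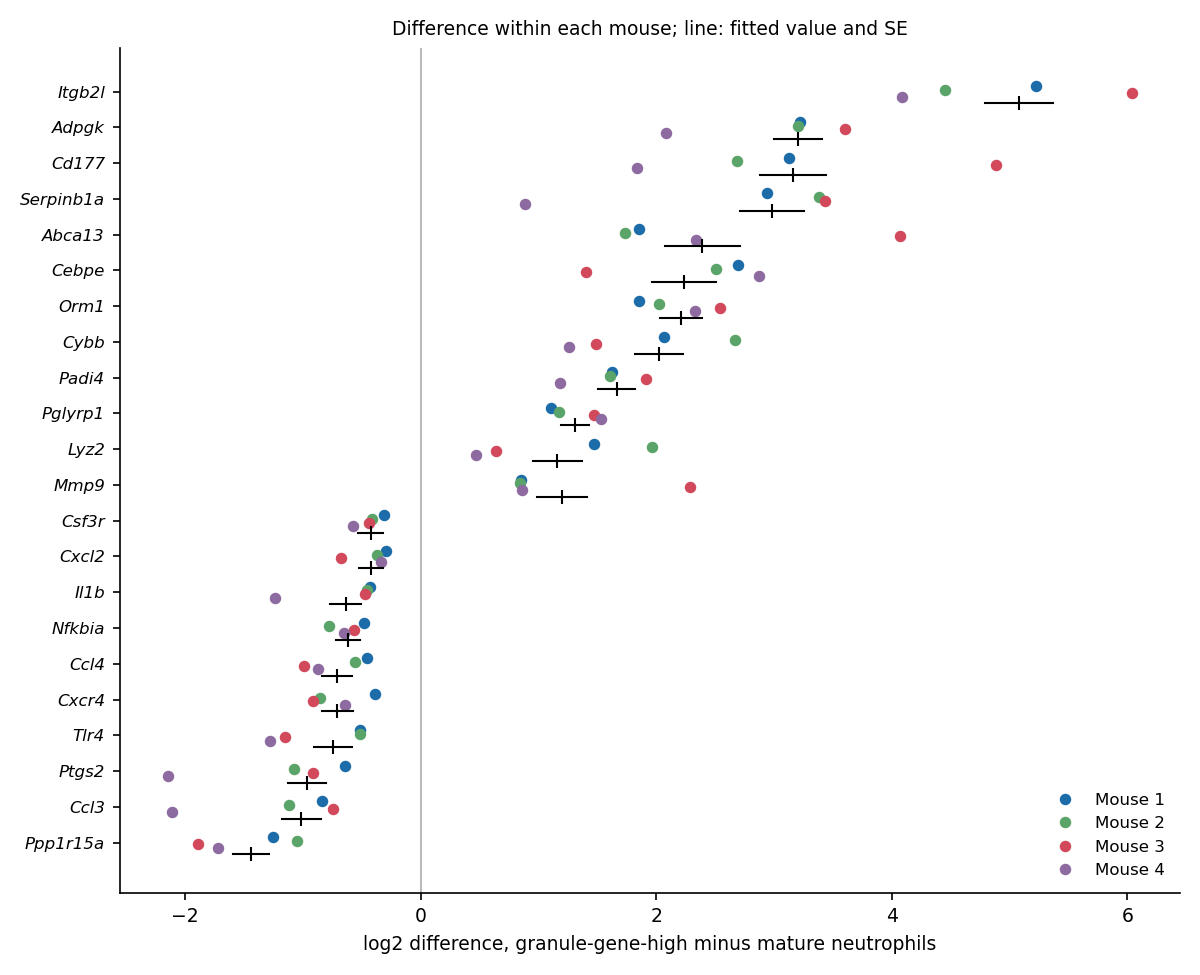
Log2 difference between members and mature neutrophils (horizontal axis) within each of the 4 mice (coloured points) for 22 named genes (vertical axis), with the value and SE fitted over the 4 mice as a black line. Every plotted gene has the same sign in all 4 mice, but this follows at least in part from the choice of genes. Genes from outside the lists could be named only with the same sign in every mouse. Cxcl3, Mki67 and Top2a, which were called without a shared sign, are not plotted. The shared sign is therefore no separate result. Mouse 3 lies farthest right for Itgb2l, Cd177 and Mmp9.

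The members were not uniform, and part of the specific granule genes differed between the grades. Because mice 2 and 4 had only 8 and 5 of these, granule-rich and granule-low members were compared in mice 1 and 3 alone, where edgeR called 118 of 7133 genes higher (1.65%) and 101 lower (1.42%). Over all 4 mice, with fewer cells allowed, 145 of 4935 were higher (2.94%) and 211 lower (4.28%). With DESeq2 the comparison in mice 1 and 3 gave 35 and 7 calls. In edgeR it gave 0 and 0 after thinning each cell to 1000 UMIs (180 of 2567 genes at an unadjusted p under 0.05) and 0 and 0 without the mouse block (131 of 7133). In the fit over 4 mice, leaving out mouse 1 gave 18 higher and 19 lower of 5347 genes. Leaving out mouse 2 gave 34 and 29 of 4906. For mouse 3 it was 181 and 179 of 2395, and for mouse 4, 85 and 18 of 6818. In mice 1 and 3, Itgb2l stood at 299 and 107 CPM in granule-rich and 10.3 and 10.1 CPM in granule-low members (log2 fold change 3.92 ± 0.45). Cebpe was at 193 and 119 against 7.24 and 33.5 CPM (2.70 ± 0.43), and Chil3, a chitinase-like protein of specific granules, at 5075 and 5642 against 1517 and 546 CPM (2.39 ± 0.35). Specific granule genes had 5 of 11 higher and 0 lower between the grades. Inflammatory mediators had 8 of 15 lower and 0 higher: Ccl4 stood at 0 and 1244 CPM against 315 and 3794 CPM, where 3 UMIs in the granule-rich cells of mouse 1 would be 16 CPM, and Il1b at 6696 and 8848 against 12444 and 18209 CPM (-1.13 ± 0.32). Csf3r, at 1086 and 279 against 2388 and 479 CPM, was lower by 1.12 on the log2 scale (SE 0.33).

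**Figure D4:**
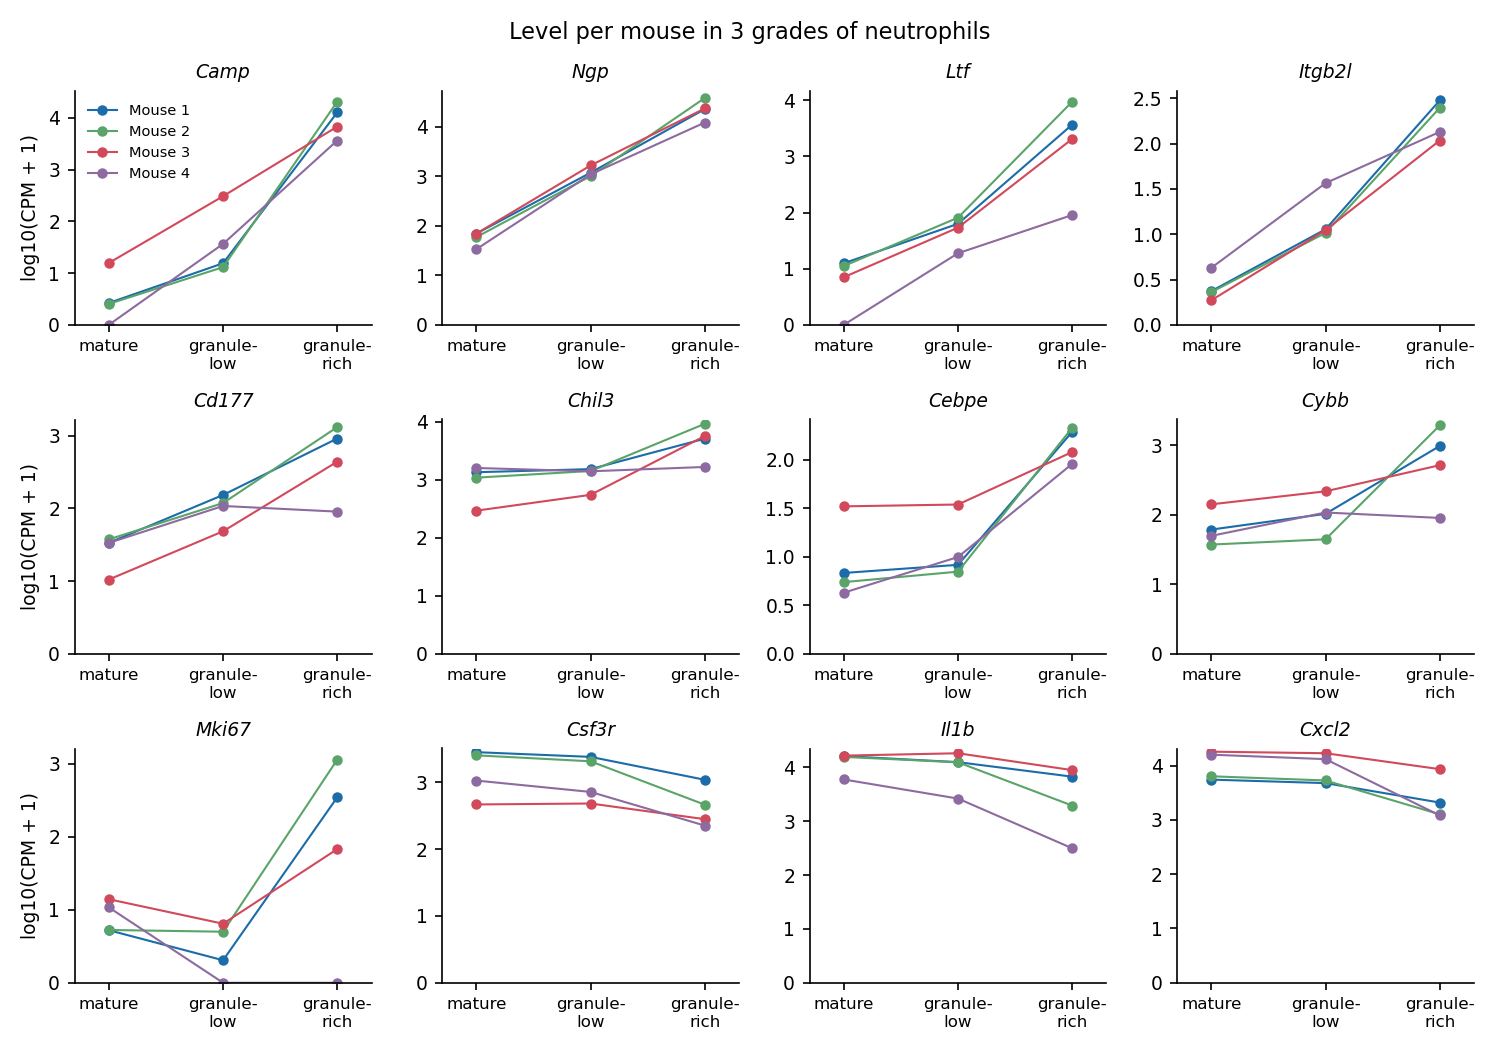
Level of 12 genes, as log10(CPM + 1) on the vertical axis, in mature neutrophils, granule-low members and granule-rich members (horizontal axis), 1 line per mouse. Camp, Ngp and Ltf chose the grades; Cebpe is higher in granule-rich cells than in both other grades in mice 1 to 3 and rests on 2 UMIs in those of mouse 4, and Csf3r, Il1b and Cxcl2 are lowest in granule-rich cells in every mouse.

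Set against the same mature neutrophils, the 2 grades of members gave different values, side by side since they share those cells. In granule-low members edgeR called 231 of 6914 genes higher (3.34%) and 207 lower (2.99%); in granule-rich members, over 4 mice, 204 of 5542 higher (3.68%) and 325 lower (5.86%). Of the 11 specific granule genes, 7 were higher in granule-low and 6 in granule-rich members, and 0 lower in either. Itgb2l was higher by 3.03 ± 0.41 in granule-low and by 7.34 ± 0.61 in granule-rich members, and Cd177 by 2.03 ± 0.16 and 4.53 ± 0.52. Cybb was higher by 0.65 ± 0.14 and 3.29 ± 0.52. Il1b, at -0.35 ± 0.14, did not pass in granule-low members and was at -2.39 ± 0.41 in granule-rich ones. Csf3r, at -0.18 ± 0.10, did not pass in the first and was at -1.81 ± 0.43 in the second. Of the 14 mature receptors, 1 was lower in granule-low and 5 in granule-rich members, with medians of 0.03 and -0.99. Retnlg, 1 of the 8 neutrophil marker genes, was higher in granule-low members by 1.42 ± 0.14 and did not pass in granule-rich ones (0.53 ± 0.37). The working name of these cells, immature, was checked against these values. Cebpe, the factor of the specific granule stage, was at 193, 212 and 119 CPM in the granule-rich cells of mice 1 to 3. In these, 23 of 36, 14 of 35 and 24 of 264 Cebpe UMIs sat in 1 cell. Without that cell the levels were 83.8, 153 and 109 CPM. The 5 such cells of mouse 4 had 2 UMIs, fewer than the 3 that would make 134 CPM there. Granule-low cells were at 6.01 to 33.5 CPM. Cxcr2, a receptor of mature cells, was at 1717, 2157, 328 and 473 CPM in granule-low members and was not called against mature neutrophils. The name of stage is therefore not used here for the granule-low cells. Granule-rich cells also held Cxcr2, at 973, 605, 557 and 402 CPM in mice 1 to 4, the last from 9 UMIs. It was seen in 100%, 87.5%, 89.0% and 100% of them. Mature neutrophils were at 1626, 2091, 108 and 521 CPM. The granule-rich level was thus lower in mice 1 and 2 and higher in mouse 3. In mouse 4 it was also lower, but on 9 UMIs. The 5 genes whose high counts chose the cells took 340362 CPM in granule-rich and 113115 CPM in mature cells there. The direction in mouse 4 is therefore not resolved. Whether the name holds for the granule-rich cells was not tested.

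Dividing cells were few. A cell was counted as cycling if it had at least 2 UMIs over 9 mitosis genes such as Mki67 and Top2a. That was 3 of 148, 5 of 229, 13 of 418 and 0 of 52 members (2.03%, 2.18%, 3.11% and 0%, where 3 counts of 52 would be 5.77% and the exact interval reaches 6.85%) and 0.382%, 0.352%, 1.85% and 0.671% of mature neutrophils. The difference averaged 1.02 ± 1.15 percentage points (SD, n = 4) and was positive in 3 of 4 mice, with an exact sign permutation p = 0.25, two-sided, where the smallest p that 4 mice can give is 1 in 8. Thinned to 1000 UMIs, it was 0.918 ± 0.667 points. With a limit of 1 UMI in place of 2, it was 0.486 ± 1.36 points (5.74% against 5.25% on average). That difference was positive in 3 of 4 mice, and in mouse 1 members were lower (3.38% against 4.72%). By grade, 1 of 13, 3 of 8, 10 of 237 and 0 of 5 granule-rich members were cycling, and 2 of 135, 2 of 221, 3 of 181 and 0 of 47 granule-low members. In the gene test Mki67 (3.72 ± 0.48) and Top2a (5.42 ± 0.51) passed as higher in members, in 3 of 4 mice, but few cells carried them: of the 66 Mki67 UMIs in members of mouse 1, 65 sat in 1 cell, of 195 in mouse 2, 100 sat in 1, and of 156 in mouse 3, 41 sat in 1. The mitosis list had 2 of 6 tested genes higher, 6 of 6 without mouse 3 and 10 of 13 without mouse 4. Between granule-rich and granule-low members of mice 1 and 3, 9 of 12 tested mitosis genes were higher. In granule-rich cells Kif11, a motor of dividing cells, stood at 102 and 11.7 CPM and Ccna2, a cyclin, at 90.9 and 9.44 CPM. Both had 0 UMIs in granule-low ones, so they could enter the test only through the granule-rich cells. The granule-rich cycling cells numbered 1 and 10 in these mice, so the count describes those few cells and is no separate support. Over all 4 mice, 3 mitosis genes were tested and 1 was higher. After thinning to 1000 UMIs in mice 1 and 3, 2 were tested and 0 passed.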

How the data were processed

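Single-cell RNA libraries of 4 mouse kidneys were analysed from the authors' deposited UMI count matrices, whole numbers per gene and barcode with 57132 genes. Cell Ranger 9.0.1 and Seurat 4.1.1 are named in the submitters' processing notes; the genome build is not given in the sources used here. Deposited barcodes (8790, 9368, 17312 and 12743) held 36831995 to 105436725 UMIs, of which 7085, 8858, 12904 and 12092 barcodes passed the limits; median depth was 5549, 5815, 5655 and 2077 UMIs, and ribosomal protein genes took 1.48%, 1.52%, 2.35% and 13.7% of a cell's UMIs at the median, so mouse 4 stands apart. Libraries shared 0 to 40 kept barcodes in pairs, and 0 members' barcodes. No doublet caller was run; the gate leaves out cells by a few genes of other classes, mixed cells can remain, and alternatives leave out cells with markers of other classes or the top 5% of UMIs. Counts were summed per mouse and class and tested with edgeR 4.0.16 (TMM, filterByExpr, quasi-likelihood, Benjamini-Hochberg), with classes of at least 10 cells; the mouse is the block because both classes come from each mouse, and DESeq2 1.42.0 was an alternative. On simulated data for the comparison of members with mature neutrophils (7412 genes), edgeR recovered 92% of genes changed by 2 and 35% of those changed by 1 on the log2 scale. For granule-rich against granule-low members of mice 1 and 3 (7158 genes) it recovered 72% and 11%. False calls numbered 5 and 2. The simulation gave every gene the same spread between samples (dispersion) and each changed gene the same change in every mouse. The rates may therefore be lower in the real data, where the mice differ. The labels name the 4 kidneys as separate biological replicates. Members and gene lists were chosen with earlier results of these data known. Named genes were at most 4 called per list and direction, and outside the lists the 10 largest in each direction with adjusted p under 0.05, 1 sign in every mouse and a mean of at least 50 CPM; Lyz2, Lcn2, Chil3, Mmp8, Il1b, Nfkbia, Cxcr2, Spi1 and Retnlg were added after their values were seen.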

Additional observations from a re-analysis of the deposited data

Results flagged for a closer look

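Values of 72 measures over the 4 mice (shares, levels of the rule's genes and within-mouse differences of named genes) were searched for 1 mouse far from the other 3, which chance gives in about 1 in 20 groups, and 11 were found. Mouse 3 stood apart in the granule-rich share, at 1.84% of kept cells and 37.4% of gated neutrophils, and in the Ngp level of members, at 15361 CPM. In the same mouse the log2 difference between members and mature neutrophils was farthest from the others for Mmp8 (3.25), Mmp9 (2.29), Gpi1 (1.18) and Tnfaip3 (-0.38), the last being an inhibitor of NF-kB. Mouse 4 stood apart in the levels of S100a8 (95673 CPM) and S100a9 (133034 CPM) in members and in the difference of Il1b (-1.24). Mouse 2 had the smallest fall of Cebpa (-0.64).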

How the results depend on the processing

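The share of members, 2.09% of kept cells, was 0.538% at a granule limit of 50, and it moved by less than its SD in the other settings (1.70 to 2.64% without 1 mouse). Against mature neutrophils, 247 of 7348 genes were higher and 290 lower. The number of genes tested differed between settings, so it is given with the counts. No filter on low counts gave 405 higher of 26352, and thinning to 1000 UMIs gave 113 and 105 of 2771. Granule-high cells at 50 or more in mice 1 and 3 gave 145 and 90 of 8277. With no replicate block the counts were 1 and 0 of 7348. Leaving out 1 mouse gave 67 to 522 higher and 65 to 517 lower, of 6847 to 9061 genes. Between granule-rich and granule-low members, 118 and 101 of 7133 became 35 and 7 with DESeq2 and 0 and 0 without the replicate block. Thinned, they were 0 and 0 of 2567, and no filter gave 33 lower of 18712. Over all mice, an alternative chosen after seeing the data, 211 of 4935 were lower. Leaving out mouse 1 or 2 there gave 18 and 19 of 5347 and 34 and 29 of 4906. Leaving out mouse 3 or 4 gave 181 and 179 of 2395 and 85 and 18 of 6818. Granule-rich against mature and granule-low against mature were also added after seeing the data. Of the named genes, Fpr1 turned to -0.023 in granule-rich against mature cells, and Adora2a, lower in granule-rich than granule-low members by 1.94 on the log2 scale, to 0.062 with DESeq2. Leaving out replicates in the granule-rich comparison of mice 1 and 3 alone was not run, since 1 mouse leaves no spread. Mouse 4's members hold 134469 UMIs in all, so 3 UMIs are 22.3 CPM there, and low genes in it are not resolved. The cause of these changes was not tested.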
